A study of Mus musculus with 6 samples.

Results

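The Ly6 surface antigens described here are 10 mouse genes, Ly6a, Ly6c1, Ly6c2, Ly6d, Ly6e, Ly6h, Ly6i, Ly6k, Lynx1 and Lypd1, out of 21117 genes in the expression table. They were found by NCBI gene number, and all 10 were in the table. The family was chosen by its values in these same libraries, in the comparison of the genotypes, so the differences between genotypes below are a description and support nothing beyond themselves. Poly(A) RNA was sequenced from aortic tissue of mice aged 32 weeks, in 3 wild-type (WT) samples and 3 samples of genotype Fbn1C1041G/+, all labelled untreated. The mutant mice carry 1 copy of a missense allele of fibrillin-1, a microfibril glycoprotein, and serve as a model of Marfan syndrome, in which the aorta dilates. The allele is in every cell of the animal, and each sample is whole aortic tissue, so that fewer cells of a type and less RNA per cell cannot be told apart. The question of the design was which genes differ between the genotypes.

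Ly6 proteins share a small, disulphide-braced fold, and most are tethered to the outer face of the cell membrane by a glycolipid anchor. Ly6a, known as Sca-1, marks haematopoietic stem cells and is also made by endothelial and adventitial mesenchymal cells of the mouse vessel wall. Ly6c1 and Ly6c2 together make the Ly6C antigen, which in mice separates classical from patrolling monocytes and is also found on endothelium. Ly6e is widely expressed and responds to interferon. Ly6d is found on stratified epithelia and on early B-lymphoid progenitors. Lynx1, Ly6h and Lypd1 belong to a branch that binds nicotinic acetylcholine receptors and tunes them. Most of these genes lie close together on mouse chromosome 15.

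Ly6c1 and Ly6c2 are near copies, and how well sequencing fragments can be told apart between them bears on every value of the pair. Over 822 aligned bases their transcripts differed at 20, which is 97.6% identity, and the longest run without a difference was 188 bases. The coding part of their first coding exon is shown because it holds 6 of these differences within 70 bases. It is read from GENCODE M21 transcripts on GRCm38, minus strand, at chr15:75048442-75048511 for Ly6c1 and chr15:75111598-75111667 for Ly6c2, with the differing bases in capitals.
Ly6c1: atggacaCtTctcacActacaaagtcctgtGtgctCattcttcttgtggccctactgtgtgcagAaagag
Ly6c2: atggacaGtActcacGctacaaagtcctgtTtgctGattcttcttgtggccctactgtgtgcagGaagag
Counted from the A of the start codon, with the Ly6c1 base first, the differences are C8G, T10A, A16G, G31T, C36G and A65G. Over the whole coding sequence the pair was 97.7% identical, and the encoded proteins were 94.7% identical. The next closest pair among the members was Ly6a and Ly6i, at 86.3% in coding sequence. Ly6a and Ly6c1 were 81.8% identical, whereas Ly6a and Ly6e, which had almost the same level in every library, were only 53.5% identical.

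The promoters of Ly6c1 and Ly6c2 are less alike than their transcripts, and are shown because the levels of the pair differed in pattern between libraries. RefSeq promoters on GRCm38.p6 were at hand for 3 members, Ly6c1, Ly6c2 and Lypd1. The stretches printed lie upstream of every annotated start, on the minus strand, at chr15:75048921-75049056 for Ly6c1 and chr15:75112088-75112221 for Ly6c2. Capitals mark bases that differ or have no partner in the alignment.
Ly6c1: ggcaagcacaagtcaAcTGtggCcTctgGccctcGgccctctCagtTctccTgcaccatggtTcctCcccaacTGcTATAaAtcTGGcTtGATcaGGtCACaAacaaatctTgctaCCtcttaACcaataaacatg
Ly6c2: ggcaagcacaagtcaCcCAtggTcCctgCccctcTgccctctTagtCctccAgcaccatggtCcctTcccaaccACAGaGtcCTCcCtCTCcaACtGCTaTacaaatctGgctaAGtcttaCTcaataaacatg
Of 134 aligned bases, 99 were identical, or 73.9%. The TATA box letters TATAAA, searched on both strands of the 250 bases before each start, were in 1 of 2 Ly6c1 windows, in 0 of 2 Ly6c2 windows and in 12.4% of 32851 promoters. The interferon-regulatory factor letters GAAANNGAA were in 7.13% of all promoters, and the STAT letters TTCNNNGAA in 7.02%. Neither was in the windows of Ly6c1, Ly6c2 or Lypd1. These matches describe letters in a window and say nothing of binding.

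Values are FPKM, fragments per kilobase normalised to library size, as the authors deposited them, and so levels are compared per length of transcript. The files hold no counts. From the steps between low values the depth of a library was estimated at 13900000 to 16960000 fragments, with 73.9% to 75.8% of those low values within 0.2 of a whole fragment. Smooth muscle markers, which check the label aortic tissue, were abundant in every library, with summed levels of 9167 to 10732 FPKM in WT, against 9880 to 12065 FPKM in Fbn1C1041G/+. Of the 7 smooth muscle, 7 endothelial and 7 adventitial fibroblast genes limma called 0, and 0 had an unadjusted p under 0.05. Other tissues varied between the libraries. All 7 tested sympathetic and adrenomedullary genes were called lower in the mutant group, and all 6 cardiac muscle genes were called higher. Adrenal cortex genes were high only in Fbn1C1041G/+ replicates 2 and 3, where a list of 8 such genes written after the values were seen summed to 108 and 97.1 FPKM. The same list summed to 2.57 to 4.21 FPKM in WT, against 4.10 FPKM in Fbn1C1041G/+ replicate 1.

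The members fell into 3 levels of expression. Ly6c1, Ly6a and Ly6e were abundant, at 266, 234 and 236 FPKM over all 6 libraries. Lynx1 at 29.9 FPKM, Ly6c2 at 11.1 FPKM and Ly6d at 9.89 FPKM were in between. Ly6k, Ly6h, Lypd1 and Ly6i stayed under a mean of 1 FPKM and were not tested. Within WT, the SDs of Ly6c1, Ly6e and Ly6a reached over the gaps between their means. Library by library, Ly6c1 was the highest of those 3 genes in WT, by little in replicate 1, at 207.74 against 201.22 and 201.26 FPKM. Ly6a and Ly6e kept no order over the WT libraries, and in the mutant group none of the 3 genes did. Lynx1 lay above Ly6c2 and Ly6d in every WT library, while in Fbn1C1041G/+ samples the ranges of these 3 overlapped, at 23.5 to 26.8, 13.7 to 27.8 and 7.54 to 25.01 FPKM. The 10 members together summed to 662 ± 65.2 FPKM in WT and, for the mutant group, to 916 ± 381 FPKM (SD, n = 3 each), and Ly6a, Ly6c1 and Ly6e made up 88.2% to 96.3% of that sum in every library.

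**Figure D1:**
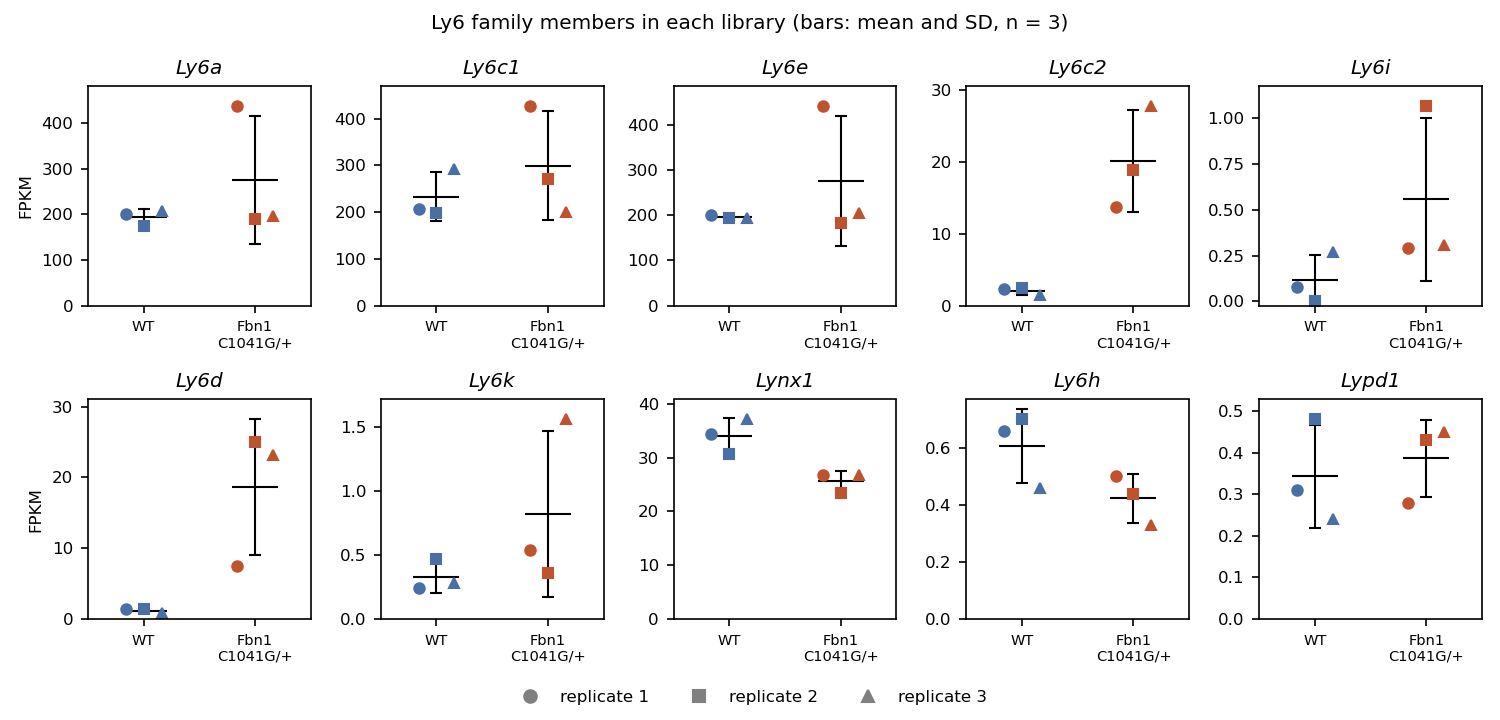
FPKM of each of the 10 members (vertical axis, one scale per panel) in WT and Fbn1C1041G/+ libraries, 1 point a library with a shape for each replicate number, and bars for the mean and SD of 3. Ly6c2, Ly6d and Ly6i have all 3 mutant points above the WT points and Lynx1 has them all below, while Ly6a, Ly6c1 and Ly6e have 1 high point, Fbn1C1041G/+ replicate 1.

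Of the 6 members tested with limma on log2(FPKM + 1), 2 were called higher in Fbn1C1041G/+ and 0 lower at an adjusted p under 0.05, the adjustment running over all 13438 genes tested. Over all those genes 0.744% were called higher and 4.85% lower at that adjusted threshold. At an unadjusted p under 0.05, 1 member, Lynx1, was lower. The share of all tested genes at an unadjusted p under 0.05 is not given here. This count and the later unadjusted counts therefore have no share beside them and are a description. All 3 mutant values lay above all 3 WT values for 2 of the 6 tested members, against 6.85% of tested genes, and below them for 1, against 13.1%. Because the members were selected on this contrast, nothing is read from these shares. The median log2 fold change was 0.38 over the 6 tested members and -0.0036 over all tested genes.

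Ly6a, Ly6c1 and Ly6e, the 3 abundant members, had 1 high mutant library, at 1.83 to 2.25 times the WT mean, and mutant libraries near the WT level otherwise. Ly6a, or Sca-1, stood at 201, 175 and 206 FPKM in WT replicates 1 to 3 and at 437, 189 and 197 FPKM in Fbn1C1041G/+ replicates 1 to 3. Only mutant replicate 1 was high, and the other mutant libraries lay within the WT range. The log2 fold change was 0.39 ± 0.32 (SE) and did not pass the threshold, and without Fbn1C1041G/+ replicate 1 it was -0.0024.

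Ly6e, an interferon-responsive surface protein, had nearly the same values. WT libraries stood at 201, 194 and 193 FPKM, and Fbn1C1041G/+ libraries at 441, 182 and 204 FPKM. Mutant replicate 1 was again far above WT, replicate 2 was just below all WT libraries and replicate 3 just above them. The log2 fold change was 0.37 ± 0.32 (SE), not called, and without Fbn1C1041G/+ replicate 1 it was -0.023. The ratio of Ly6a to Ly6e was 0.991 ± 0.0839 (SD, n = 3) in WT and 0.999 ± 0.0361 (SD, n = 3) in the mutant group, and in the high library both genes stood at 2.25 times their WT mean. Of 9 interferon response genes, limma called 0, with 4 higher and 1 lower at an unadjusted p under 0.05, and the summed level of the list was 105 to 136 FPKM over the WT libraries and 214, 126 and 167 FPKM over Fbn1C1041G/+ replicates 1 to 3. None of the 9 was at 0 in every library, and the part of this list in the Ly6e values was not tested.

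Ly6c1, the Ly6C gene with by far the higher level in this tissue, stood at 208, 199 and 293 FPKM in WT, against 427, 270 and 199.9 FPKM in Fbn1C1041G/+. Mutant replicate 1 was the highest library, while replicates 2 and 3 lay within the WT range, the upper end of which was set by WT replicate 3. The log2 fold change was 0.31 ± 0.30 (SE), not called, and 0.02 without Fbn1C1041G/+ replicate 1. Endothelial markers, with 0 of 7 called, summed to 349, 333 and 499 FPKM in WT and 371, 428 and 345 FPKM in the mutant libraries. They were thus highest in WT replicate 3, where Ly6c1 was also the highest of WT, but not in Fbn1C1041G/+ replicate 1. Cdh5, the cadherin of endothelial junctions, stood at 46.8 FPKM in that library, within its WT range of 39.7 to 59.6 FPKM. Egfl7, of the same list, stood there at 77.8 FPKM, above its WT range of 60.6 to 70.65 FPKM. The remaining genes of the list lay within their WT ranges in that library. The part of endothelium in the Ly6c1 values was not tested.

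Fbn1C1041G/+ replicate 1 also stood apart in its composition. Its FPKM summed to 514316, against 448803 to 473068 in the other libraries, and across genes its deviations had a Spearman correlation of -0.39 with transcript length, where the other libraries ranged from -0.15 to 0.34. Tested genes with transcripts of up to 1000 bases had a median deviation of 0.21 on the log2 scale in that library, measured from the mean of the 6 libraries, and those with transcripts of over 2000 and up to 5000 bases had one of -0.04. The same deviation was 0.98 for Ly6a, 0.98 for Ly6e and 0.74 for Ly6c1, whose annotated transcripts averaged 955, 2189 and 710 bases. After a correction for length and GC content, added after the data were seen, the log2 fold changes of Ly6a, Ly6e and Ly6c1 were 0.34, 0.46 and 0.24, none of them called. Monocyte and macrophage markers and adventitial fibroblast markers also had their highest mutant sums in this library, at 611 and 1822 FPKM. The WT sums were 146 to 195 and 1352 to 1729 FPKM, and 3 of 8 and 0 of 7 of these genes were called. No gene of either list was at 0 in every library, and their part in the levels of Ly6a, Ly6e and Ly6c1 was not tested.

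Ly6c2, the Ly6C gene of inflammatory monocytes, was higher in every Fbn1C1041G/+ library, and was 1 of the 2 members called. It stood at 2.33, 2.4 and 1.45 FPKM in WT, against 13.7, 18.9 and 27.8 FPKM in Fbn1C1041G/+, with group means of 2.06 ± 0.529 and 20.1 ± 7.13 FPKM (SD, n = 3 each). The groups did not overlap, and the lowest mutant library was 6.67 times the WT mean. The ratio of the means was 9.78, and the log2 fold change was 2.75 ± 0.27 (SE). At the estimated depths these values correspond to about 16.6 to 33.0 fragments in WT and 192 to 361 in the mutant libraries. With any 1 library left out, the log2 fold change was between 2.499 and 2.98 and the call held.

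The order of the mutant libraries was opposite for the 2 Ly6C genes: Ly6c1 was highest in replicate 1 and lowest in replicate 3, and Ly6c2 the reverse. As a share of Ly6c1 plus Ly6c2, Ly6c2 made up 1.11%, 1.19% and 0.492% in WT and 3.11%, 6.52% and 12.2% in Fbn1C1041G/+. The share was thus higher in every mutant library than in any WT library. Summed before the log, the pair had a log2 fold change of 0.41, which was not called. How the fragments common to both genes were assigned is not given in the sources used here, so the Ly6c2 level carries that uncertainty.

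Monocyte and macrophage markers were also higher in the mutant group, with 3 of 8 called higher and 0 lower, and with summed levels of 146 to 195 FPKM in WT, against 268 to 611 FPKM in Fbn1C1041G/+. None of the 8 was at 0 in every library. Ccr2, the chemokine receptor by which classical monocytes leave the marrow, stood at 1.15 to 1.68 FPKM in WT, and mutant replicates 1 to 3 had 6.23, 4.31 and 5.16 FPKM. Lyz2, lysozyme of myeloid cells, stood at 104, 129 and 139 FPKM and at 421, 202 and 327 FPKM. Both were highest in mutant replicate 1, the mutant library where Ly6c2 was lowest. Ly6c2 per unit of Ccr2 was 0.863 to 2.03 in WT and 2.21 to 5.39 in Fbn1C1041G/+, so the ratio was higher in each mutant library, in replicate 1 only just. T and NK cell genes, with 0 of 6 called by limma and 6 higher at an unadjusted p under 0.05, summed to 19.4, 7.48 and 32.5 FPKM in mutant replicates 1 to 3, where WT libraries had 2.29 to 5.24 FPKM. They were highest in replicate 3, as Ly6c2 was, and none was at 0 in every library. The part of monocytes, macrophages, T and NK cells in the Ly6c2 values was not tested.

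Ly6i, known from bone marrow cells of mice and the closest relative of Ly6a here, stood at 0.08, 0 and 0.27 FPKM in WT, against 0.29, 1.07 and 0.31 FPKM in Fbn1C1041G/+. All mutant values were above WT, but they rested on about 5.7 to 17.8 fragments, against 0 to 4.3 in WT, and replicates 1 and 3 exceeded the highest WT library by little more than 1 fragment. Fbn1C1041G/+ replicate 2, where Ly6i was highest, was also the library with the highest sum over the neutrophil list. The neutrophil list, with 0 of 7 called by limma, 2 higher at an unadjusted p under 0.05 and none at 0 in every library, had a summed level of 9.47 to 15.95 FPKM over WT libraries and of 21.7, 173 and 17.7 FPKM over mutant replicates 1 to 3. S100a8 and S100a9 stood at 64.99 and 67.16 FPKM in mutant replicate 2. Mmp9 alone of the list was not highest there, at 3.72 FPKM against 3.91 FPKM in mutant replicate 1. Cxcr2 exceeded WT replicate 2 by little, at 4.33 against 4.3 FPKM. The neutrophil antigen gene Ly6g, which is no member, was listed at 0.60 FPKM, about 8.1 fragments, in mutant replicate 2 and at 0 in the other 5 libraries. The part of neutrophils in the Ly6i values was not tested.

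Ly6d, an antigen of stratified epithelia and lymphoid progenitors, was the other member called. It stood at 1.35, 1.40 and 0.84 FPKM in WT, against 7.54, 25.01 and 23.2 FPKM in Fbn1C1041G/+, with means of 1.20 ± 0.310 and 18.6 ± 9.61 FPKM (SD, n = 3 each). The groups did not overlap, but the mutant libraries were unlike, with replicate 1 at 6.30 times and replicates 2 and 3 at 20.9 and 19.4 times the WT mean. The log2 fold change was 3.01 ± 0.42 (SE), called higher, and it lay between 2.72 and 3.52 with the call kept when any 1 library was left out. It differed from that of Ly6c2 by less than its SE, and without Fbn1C1041G/+ replicate 2 the order turned, at 2.72 for Ly6d and 2.77 for Ly6c2. The values correspond to about 8.7 to 17.4 fragments in WT and 95.1 to 272 in the mutant libraries.

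Adrenal cortex transcripts were among those that were high in the 2 mutant libraries with the most Ly6d. Cyp11b1, which makes corticosterone and lies in the same chromosome 15 cluster, stood at 0.10 FPKM in Fbn1C1041G/+ replicate 1 and at 9.48 and 7.25 FPKM in replicates 2 and 3, with 0 to 0.13 FPKM in WT. Cyp11a1, the side-chain cleavage enzyme that begins steroid synthesis, had 0.12 to 0.14 FPKM in WT, and 0.10, 9.73 and 10.2 FPKM in mutant replicates 1 to 3. Akr1b7, an aldose reductase of the mouse adrenal cortex, had 0 to 0.25 FPKM in WT, and 0.14, 31.1 and 26.4 FPKM in the same mutant order. Of the 8 genes listed, 7 had a step of this kind and Mc2r, the corticotropin receptor, at 0.40 to 1.88 FPKM in all libraries, did not. Of the 7 tested, limma called 0, with 5 higher at an unadjusted p under 0.05, and none of the 8 was at 0 in every library.

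The log2 fold change of Fbn1C1041G/+ replicate 1 alone against WT was 1.97 for Ly6d and 2.28 for Ly6c2, a comparison in which neither was called, with the spread taken from the WT libraries and moderated across genes, and the lone sample assumed to vary like them. The part of adrenal cortex tissue in the Ly6d values of replicates 2 and 3 was not tested.

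Markers of the cells that Ly6d is known for also varied between the libraries. B and plasma cell genes, with 1 of 6 called higher and 5 higher at an unadjusted p under 0.05, had a summed level of 10.2 to 25.9 FPKM over WT libraries and of 57.8, 130 and 203 FPKM over mutant replicates 1 to 3, none of them at 0 in every library. The sum was thus above every WT library in all mutant libraries and lowest in mutant replicate 1, as Ly6d was. Within the list, Mzb1, a chaperone of antibody-secreting cells and the gene called, had 3.67, 5.30 and 17.1 FPKM in mutant replicates 1 to 3, and Jchain, which joins secreted antibodies, had 21.2, 116 and 131 FPKM. Cd79a, a chain of the B cell receptor complex, had 17.6, 4.70 and 23.2 FPKM and was lowest in replicate 2, as were Cd79b and Ms4a1. The squamous and other epithelial genes, with 0 of 3 tested called, had a summed level of 3.39 to 11.4 FPKM over WT libraries and of 4.99, 28.8 and 5.31 FPKM over mutant replicates 1 to 3. Krt5, the keratin of basal epithelial cells, was listed at 0 in replicate 3, where Ly6d stood at 23.2 FPKM, and at 8.47 FPKM in replicate 2. Mesothelial genes, with 0 of 4 tested called by limma, 2 higher at an unadjusted p under 0.05 and none of the 6 listed at 0 in every library, had a summed level of 2.10 to 8.54 FPKM over WT libraries and of 8.56, 25.8 and 19.1 FPKM over mutant replicates 1 to 3. Their sum, too, was lowest among the mutant libraries in replicate 1, as were Krt19, Upk3b and Upk1b. Msln, Wt1 and Lrrn4 of the same list were instead lowest among the mutant libraries in replicate 2, where Ly6d was highest. The part of B and plasma cells, of epithelium and of mesothelium in the Ly6d values was not tested.

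Ly6k, known from the testis, stood at 0.24, 0.47 and 0.28 FPKM in WT, against 0.54, 0.36 and 1.56 FPKM in Fbn1C1041G/+. The groups overlapped, and the highest value, in mutant replicate 3, rested on about 19.5 fragments.

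**Figure D2:**
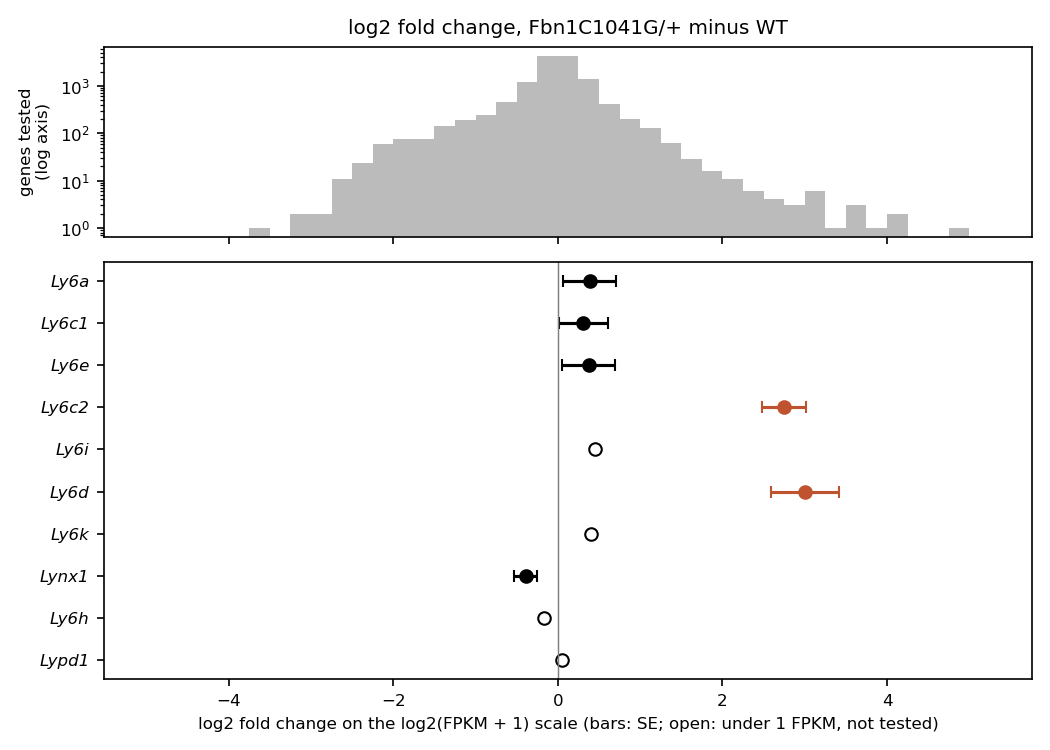
Upper panel, number of the 13438 tested genes (log axis) by log2 fold change, Fbn1C1041G/+ minus WT. Lower panel, the same quantity for the 10 members, with bars for the SE of the 6 tested members, open points for the 4 under a mean of 1 FPKM, and colour for the 2 called higher, Ly6c2 at 2.75 and Ly6d at 3.01.

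Lynx1, a membrane-bound modulator that dampens nicotinic receptors, was the member with lower values in all mutant libraries. It stood at 34.4, 30.6 and 37.1 FPKM in WT, against 26.8, 23.5 and 26.8 FPKM in Fbn1C1041G/+, with means of 34.1 ± 3.25 and 25.7 ± 1.91 FPKM (SD, n = 3 each). The groups did not overlap. The log2 fold change was -0.39 ± 0.14 (SE) and was not called, whichever single library was left out.

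The tested nicotinic receptor subunit genes differed far more than Lynx1 did. All 4 tested nicotinic receptor subunit genes, of 6 listed, were called lower, and the list summed to 102 to 123 FPKM in WT, against 13.2 to 25.9 FPKM in Fbn1C1041G/+. Chrna3, the main subunit of autonomic ganglia, stood at 60.3 to 77.3 FPKM in WT, against 8.13 to 14.6 FPKM in Fbn1C1041G/+. Chrna4 and Chrna7 were not tested. They stood at 0.01 to 0.08 FPKM and at 0.16 to 1.0 FPKM over all libraries, with overlap between the groups. The neuronal list was called lower in 7 of 7, with sums of 979 to 1066 FPKM and 145 to 222 FPKM. Neither list held a gene at 0 in every library. Lynx1 per unit of Snap25, a synaptic vesicle fusion protein, was 0.168 ± 0.0220 in WT and 0.883 ± 0.304 in the mutant group (SD, n = 3 each), with no overlap between the groups. The part of neuronal tissue in the Lynx1 values was not tested.

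The other members of this branch were scarce. Ly6h, an antigen of brain neurons, stood at 0.66, 0.70 and 0.46 FPKM in WT, against 0.50, 0.44 and 0.33 FPKM in Fbn1C1041G/+, with overlap between the groups. Lypd1, also called Lynx2 and the single member outside chromosome 15, on chromosome 1, stood at 0.31, 0.48 and 0.24 FPKM and at 0.28, 0.43 and 0.45 FPKM, also with overlap. Their mean log2 differences were -0.17 and 0.05.

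**Figure D3:**
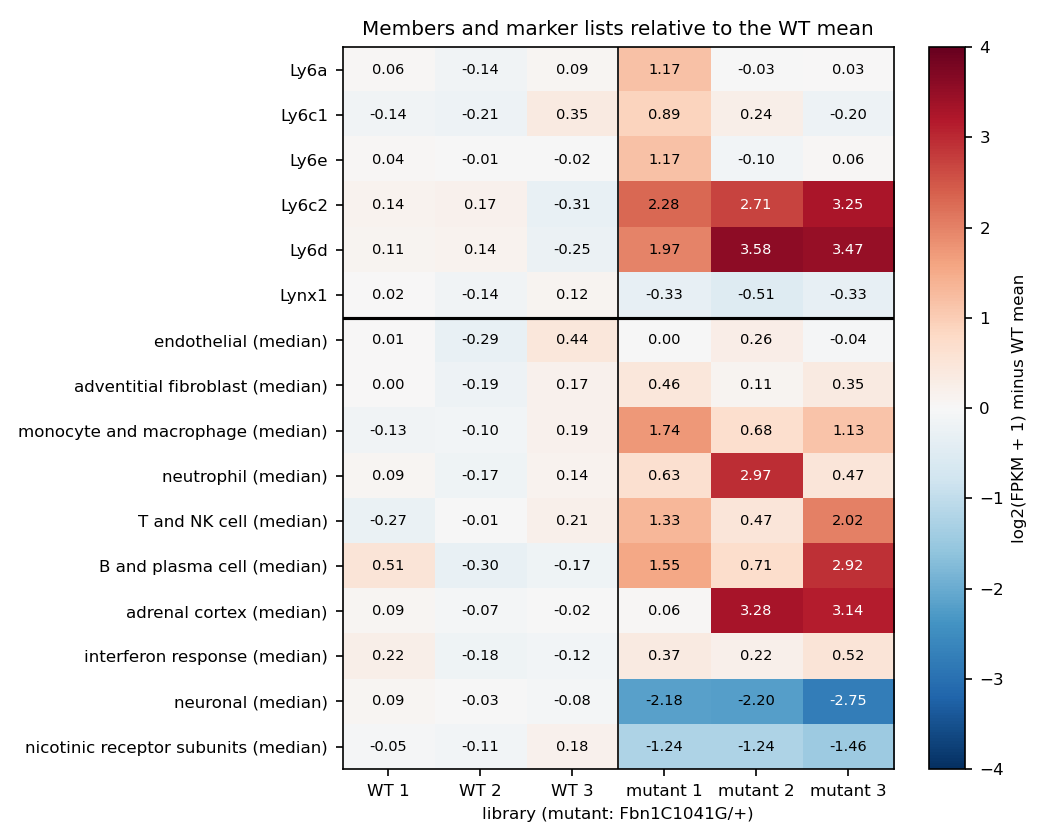
Each of the 6 tested members and the median of 10 marker lists in each library, as log2(FPKM + 1) minus the WT mean, with values printed in the cells and mutant standing for Fbn1C1041G/+. Ly6a, Ly6c1 and Ly6e are high in mutant replicate 1 alone, Ly6c2 and Ly6d in all 3, and the adrenal cortex list in replicates 2 and 3, where Ly6d is highest.

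By the patterns above, the tested members other than Lynx1 are set out in 2 sets. Ly6a, Ly6e and Ly6c1 were high in Fbn1C1041G/+ replicate 1, and Ly6c2 and Ly6d in all mutant libraries. Pearson correlations of log2(FPKM + 1) over the 6 libraries are between genes that share the same libraries and depths. They restate that 1 high library and the genotype contrast on which the family was chosen, and support nothing beyond them. Ly6a and Ly6e had a correlation of 0.985, Ly6a and Ly6c1 of 0.863 and Ly6c1 and Ly6e of 0.787. Ly6c2 and Ly6d had a correlation of 0.978, both being high in all mutant libraries, although within that group Ly6c2 was highest in replicate 3 and Ly6d in replicate 2. Between the 2 sets of genes correlations were low, from 0.101 for Ly6c1 and Ly6d to 0.278 for Ly6c2 and Ly6e. Lynx1 had correlations of -0.898 with Ly6c2 and -0.913 with Ly6d.

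The genes outside the family with the most similar pattern over the 6 libraries were found by the same measure. For Ly6a they were Ogfr and Ctsz, at 0.992 and 0.989, and for Ly6e Plac9b and Imp3, at 0.989 and 0.987. For Ly6c1 they were Ctdspl and Stxbp2, both at 0.987. For Ly6c2 they were Myo1c and Tatdn2, at 0.992 and 0.984, and for Ly6d Myo1c and Slpi, at 0.994 and 0.980. Slpi, a secreted inhibitor of neutrophil proteases, shared with Ly6d the low value in mutant replicate 1, at 6.18 FPKM against 46.8 and 30.0 FPKM in replicates 2 and 3 and 1.77 to 1.81 FPKM in WT. For Lynx1 they were Glo1 and Lhfpl2, both at 0.987. These likenesses are given as a description, with no test.

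The called members, Ly6d and Ly6c2, are not neighbours on chromosome 15. From Psca to Gpihbp1 the RefSeq gene list holds 45 genes, of which 23 were in the table, 9 of them members, and 11 were tested. Ly6d lies beside Lynx1, and the 2 differed in opposite directions. Ly6c2 lies beside Ly6c1 among the genes in the table, and Ly6c1, Ly6a and Ly6e on that side were not called.

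**Figure D4:**
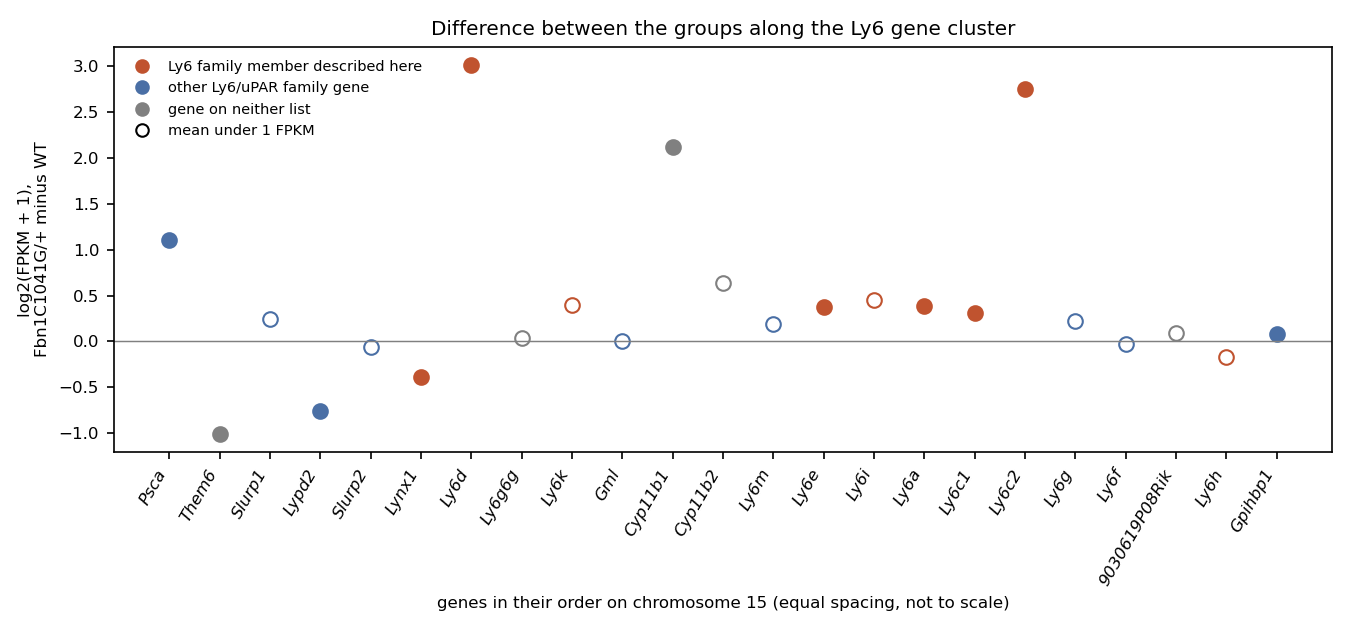
Difference in mean log2(FPKM + 1), Fbn1C1041G/+ minus WT, for the 23 genes of the chromosome 15 cluster in the table, in genomic order at equal spacing, with open points for genes under a mean of 1 FPKM. Ly6d at 3.01 and Ly6c2 at 2.75 stand above the rest, their nearest neighbours in the table have differences of -0.39 to 0.31, and Cyp11b1 at 2.12 lies between them.

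Of 34 further genes of the family of Ly6 and urokinase receptor proteins, 28 were in the table and 6 were tested, with 0 called in either direction by limma and 1, Plaur, at an unadjusted p under 0.05. Plaur, the urokinase receptor, had 9.63, 11.6 and 7.48 FPKM in WT, and 12.7, 12.04 and 14.5 FPKM in Fbn1C1041G/+. All mutant values were above WT, replicate 2 only just, and the log2 fold change was 0.43 ± 0.18 (SE). Gpihbp1, the capillary anchor of lipoprotein lipase, overlapped between the groups at 75.6 to 106 and 59.9 to 116 FPKM. Cd59a and Cd59b, which block the complement pore, had log2 fold changes of -0.15 and -0.20, and Lypd2 had one of -0.76 with 10.4 FPKM in WT replicate 2 alone. Psca, the prostate stem cell antigen at the edge of the cluster, stood at 8.25 FPKM in Fbn1C1041G/+ replicate 2 and at 0 to 0.07 FPKM elsewhere, in the same library as the high Krt5. The median log2 fold change of these 6 was -0.04.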

How the data were processed

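The values deposited by the authors are FPKM, 1 column a sample, per the file headers, and poly(A) RNA was selected, per the labels' protocols. The submitters' processing notes name mouse build mm9. The aligner, quantifier and strand setting were not given in the sources used here, so that fragments of overlapping or antisense genes may not have been told apart. Columns were mapped by name, with 0 left unmapped. Separate animals are not stated in the labels, and p-values therefore cover only the spread among these libraries, which may be technical. FPKM were analysed as log2(FPKM + 1), which understates the change of low genes, and the 13438 genes whose mean reached 1 FPKM were fitted with limma 3.58.1 in R 4.3.3 (lmFit, eBayes with trend, 2-sided, Benjamini-Hochberg over all tested genes, threshold 0.05). Calls are named beside values only as a description. The test was checked on simulated data.

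The members, gene lists and marker lists were chosen with earlier results of these data known, and the adrenal cortex list and its genes were chosen after their values were seen. The text names all members, the tested genes of the wider family, the 2 most similar genes outside the family for each tested member (mean of 5 FPKM or more, no predicted or clone symbols), and from each marker list the first or 1 of the 3 most abundant genes. Outside this rule it also names Mzb1, the called gene of its list, and Ms4a1, Chrna4, Chrna7, Wt1, Lrrn4, Cxcr2 and Mmp9. Ly6g was chosen after its values were seen.

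Depth was estimated from the steps between low values of genes with 1 transcript, and fragment numbers rest on it. No intervals were computed. Sequences come from RefSeq (GRCm38.p6) and GENCODE M21 (GRCm38), matched by gene and not by position, since the authors' build differs. The alternatives were other pseudocounts, filters, scalings and limma settings, Ly6c1 summed with Ly6c2, a block for the replicate number and the omission of each library in turn. A length and GC correction and mutant replicate 1 alone against WT were added after the data were seen.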

Additional observations from a re-analysis of the deposited data

How the results depend on the processing

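Ly6c2 and Ly6d were called higher and no member was called lower under a pseudocount of 0.1, no filter, a filter at 5 FPKM, quantile and median-ratio scaling, robust or untrended moderation, sample weights, each library left out, the replicate block and the length and GC correction. With no filter the call of Ly6d was close to the threshold, at a limma adjusted p of 0.0483 against 0.0069 in the main fit. With Fbn1C1041G/+ replicate 1 alone against WT, a fit to 4 libraries, 0 members were called, where 18 genes in all were called higher and 24 lower. The log2 fold changes of Ly6c2 and Ly6d were 2.28 and 1.97 there, and 3.20 and 3.70 with a pseudocount of 0.1.

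Over all genes, 100 were called higher and 652 lower. A filter at 5 FPKM gave 33 and 349, with fewer genes tested. Sample weights gave 285 and 1011, and the length and GC correction gave 154 higher. For these the cause was not tested. Leaving out 1 library gave 37 to 192 higher and 389 to 751 lower. The lower count was 389, 413 or 397 when WT replicate 1, WT replicate 2 or mutant replicate 3 was omitted. Same-numbered libraries had correlations of 0.255, -0.0242 and 0.0968 between their deviations from the group means. Libraries of different number were not compared, so these values do not settle whether the replicate numbers pair the libraries. The replicate block gave 112 higher and 586 lower genes and 2 members higher.

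Members under 1 FPKM rest on few fragments, and their differences were not tested.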
